A study of Mus musculus with 6 samples.

Results

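The genes described here are 45 named factors that build ribosomes, from the polymerase that transcribes ribosomal DNA to the proteins that release finished subunits. They were taken as a list of symbols with no threshold on a measured value, and earlier results of these data were known when the list was drawn up. All 45 were among the 54123 genes with a quantified transcript, and all 45 were among the 17084 that passed a filter on low counts and were tested. The 6 libraries were total RNA of muscle satellite cells, the resident stem cells of skeletal muscle, from adult C57BL/6 mice. The hind limb muscles (tibialis anterior and gastrocnemius) had been injected with cardiotoxin, a snake venom toxin that kills muscle fibres, and 30 h afterwards the cells were collected by fluorescence sorting. Every group shared this injury, strain, age class and time, and differed in genotype, with 2 libraries each of the Tdt Control, Jmjd3 KO and Utx KO genotypes. Jmjd3 (gene Kdm6b) and Utx (gene Kdm6a) are demethylases of lysine 27 on histone H3. The labels used here give genotypes only, without an allele, a Cre line or the number of animals behind a library. Nothing in them says that the libraries of a group came from separate animals, so the p-values measure only the spread between these libraries, which may be technical.

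Ribosomes are assembled in the nucleolus. RNA polymerase I (Pol I) transcribes a long precursor, guide RNA-protein particles called snoRNPs modify its bases, and the small-subunit processome and a series of large-subunit assembly particles fold and cut it into the rRNAs of the 40S and 60S subunits. The genes for these factors are commonly expressed together and are known for their rise when resting cells, satellite cells among them, enter growth and division.

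The library totals ran from 53750675 to 77675388 estimated reads. Kdm6b stood at 15.9 and 16.5 CPM (Jmjd3 KO), 29.9 and 22.7 CPM (Tdt Control) and 22.97 and 22.2 CPM (Utx KO), where CPM is the read count scaled to a common, normalised library size. Kdm6a stood at 30.3 and 32.4 CPM (Jmjd3 KO), 32.8 and 33.96 CPM (Tdt Control) and 7.68 and 7.38 CPM (Utx KO), so each targeted gene was lowest in both libraries of its knockout. All 10 satellite cell and myogenic markers listed, Pax7, Myf5 and Myod1 among them, passed the filter, and their summed level was 4159 and 4233 CPM (Jmjd3 KO), 3903 and 3935 CPM (Tdt Control) and 3964 and 4014 CPM (Utx KO). Single markers moved both ways within that sum. Against Tdt Control Myod1 was called lower in both knockouts, beside 1.03% (Jmjd3 KO) and 0.925% (Utx KO) of all genes. Des and Fgfr4 were called higher in Jmjd3 KO, beside 1.97%, and Myf5 and Fgfr4 in Utx KO, beside 0.790%. Between the knockouts Myf5 and Vcam1 were lower in Jmjd3 KO, beside 2.89%, and Des higher, beside 5.13%. Of 10 neutrophil markers 9 passed and Ly6g was under 1 CPM in every library. Their sum was 287 and 216 CPM (Jmjd3 KO), 138 and 153 CPM (Tdt Control) and 190 and 222 CPM (Utx KO), and 5 of them rose in Jmjd3 KO, beside 1.97% of all genes. The sum of 11 macrophage and monocyte markers was 318 and 293 CPM (Jmjd3 KO), 215 and 261 CPM (Tdt Control) and 192 and 226 CPM (Utx KO). The sum of 8 endothelial markers was 48.2 and 59.9 CPM (Jmjd3 KO), 55.4 and 60.4 CPM (Tdt Control) and 47.1 and 41.3 CPM (Utx KO), that of 8 fibro-adipogenic markers ran from 114 to 160 CPM and that of 6 mural markers from 357 to 404 CPM. Of 6 lymphoid markers 5 were under 1 CPM in every library, and no marker of any list was at 0 in all 6 libraries. Markers of other cells also moved with both knockouts. In Jmjd3 KO all 9 neutrophil markers tested lay above both controls, beside 26.2% of all genes, with a median log2 fold change of 0.74. In Utx KO 8 of those 9 did, beside 22.3% of all genes, with a median of 0.46, and Hdc rose, beside 0.790%. Also in Utx KO, 9 of 11 macrophage markers (median -0.41), 7 of 8 endothelial (-0.44), 4 of 8 fibro-adipogenic (-0.19) and 4 of 6 mural markers (-0.32) lay below both controls. Over all genes 23.3% did, and no marker of these lists was called. In Jmjd3 KO 4 of 11 macrophage markers lay above both controls (median 0.11), and Cd14 rose. The medians there were -0.084 (endothelial), 0.098 (fibro-adipogenic) and -0.14 (mural), with none called. Set against Utx KO, all 11 macrophage markers were higher in both Jmjd3 KO libraries (median 0.49), beside 28.6% of all genes. Cd14, Cd68, Csf1r, Itgam, Lyz2, Csf3r, Dcn, Lum and Ptprc were called higher there, beside 5.13%. The part of these markers in the differences below was not tested. In bulk RNA, fewer cells of a type and less RNA per cell cannot be told apart.

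In Jmjd3 KO the ribosome biogenesis genes lay slightly and widely below Tdt Control. The summed level of the 45 genes was 11970 and 11952 CPM (Jmjd3 KO), 13224 and 13035 CPM (Tdt Control) and 12778 and 12502 CPM (Utx KO), so in CPM both Jmjd3 KO libraries were lowest and both controls highest. That order did not hold in TPM, which divides reads by transcript length and scales every library to one total, where the sums were 3668 and 3713 TPM (Jmjd3 KO), 3706 and 3807 TPM (Tdt Control) and 3670 and 3541 TPM (Utx KO). The median log2 fold change of the 45 in Jmjd3 KO against Tdt Control was -0.14 (a change of -8.94%), beside -0.0047 over all genes tested. Of the 45, 42 lay below 0, beside 50.9% of all genes. For 39 of them both Jmjd3 KO libraries were below both controls, beside 25.5% of all genes, and for none were both above, beside 26.2%. Only Wdr43 and Heatr1 fell past the threshold used throughout, which is 0.05 for the p of edgeR's quasi-likelihood test after Benjamini-Hochberg adjustment across every gene tested. These 2 are 4.44% of the members, beside 1.03% of all genes called lower, and 0 members were called higher, beside 1.97%. The count varied with the method. DESeq2 called 12 members lower, beside 2.90% of its genes, edgeR without the filter on low counts called 7, beside 2.06%, and edgeR on protein-coding genes alone called 4, beside 1.64%. The count was 0 with the replicate number as a block, with only the 4 libraries compared, and with any 1 of the 6 libraries left out. At an unadjusted p under 0.05, 28 members were lower, beside 8.93% of all genes. The members are expressed together and are not independent, and their shares were set beside those of all genes without a test.

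The differences were small. They ran from -0.23 for Wdr43 to 0.13 for Tcof1, and their quartiles were -0.17 and -0.11. The 95% interval of a member's log2 fold change had a median half-width of 0.12, so a fall of the median size was near the limit of what 2 libraries per group resolve for 1 gene. None of the 45 intervals reached a 1.5-fold decrease. No member lay in the lowest 10% of all genes by log2 fold change, which began at -0.31.

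**Figure D1:**
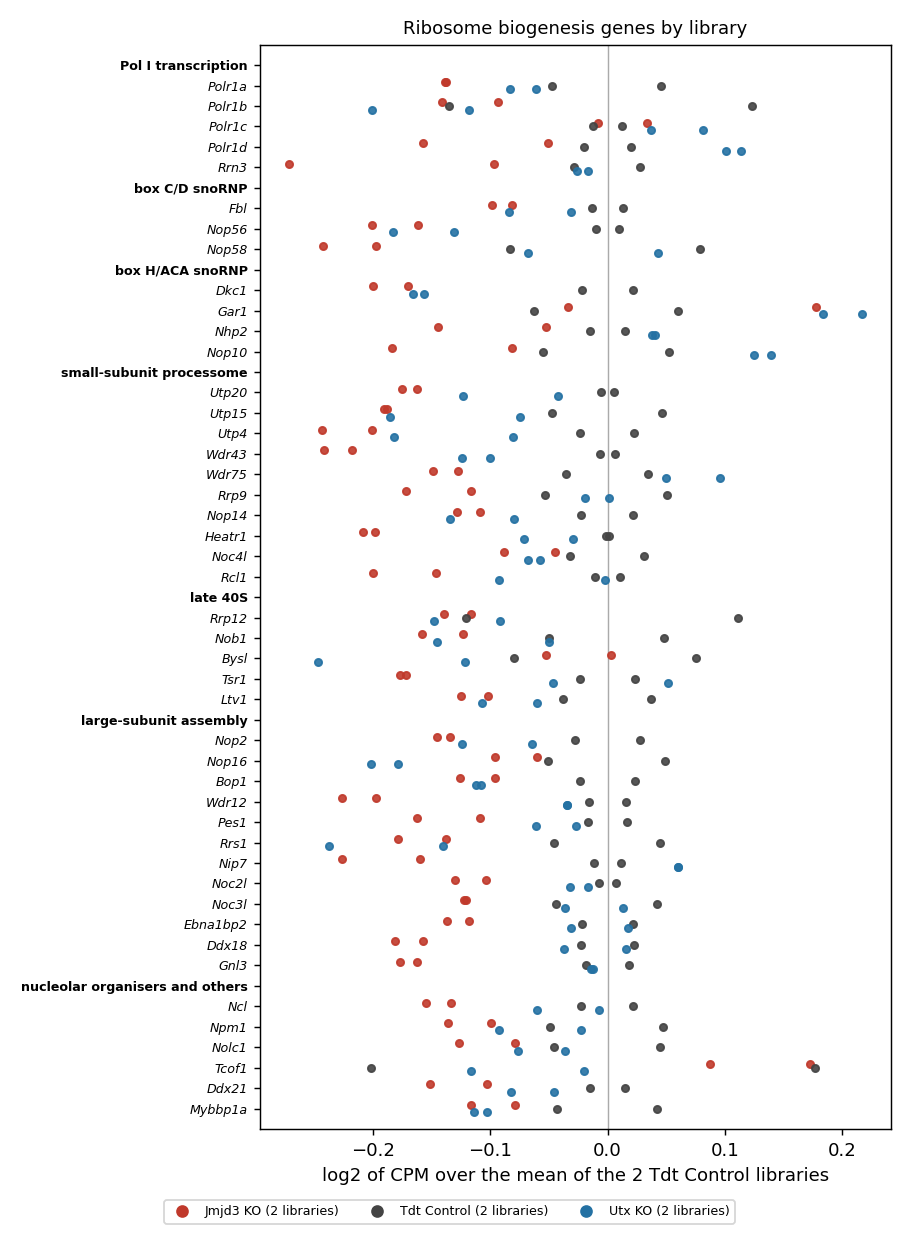
Each row is 1 of the 45 genes, grouped by role, and each point is 1 library, as the log2 of its CPM over the mean of the 2 Tdt Control libraries. Red points (Jmjd3 KO) lie left of both dark points (Tdt Control) in 39 rows, while blue points (Utx KO) lie left in 22 rows and right in 7.

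In Utx KO against Tdt Control the 45 genes lay closer to the control. Their median log2 fold change was -0.057 (a change of -3.87%), beside -0.0022 over all genes, and it was -0.034 without Utx KO replicate 2. Of the 45, 37 lay below 0, beside 50.6% of all genes. Both Utx KO libraries were below both controls for 22 members, beside 23.3%, and above both for 7, beside 22.3%. None of the 45 was called by edgeR, beside 0.925% of all genes called lower and 0.790% called higher. At an unadjusted p under 0.05, 8 members were lower, beside 8.54%, and 1 was higher, beside 7.66%, and DESeq2 called 2 (Dkc1 and Nop56, both lower), beside 2.58%. The range ran from -0.19 for Nop16 to 0.20 for Gar1, and none of the intervals reached a 1.5-fold decrease.

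Set directly against each other, the knockouts differed by a median of -0.087 in the 45 genes, lower in Jmjd3 KO, beside 0.0014 over all genes. Of the 45, 39 lay below 0, beside 49.7%. Both Jmjd3 KO libraries were below both Utx KO libraries for 31 members, beside 28.6%, and above both for 3, beside 28.6%. Nip7 and Nop10 were called lower in Jmjd3 KO, which is 2 of 45, beside 2.89% of all genes, and 0 were called higher, beside 5.13%. DESeq2 called 10 members lower, beside 5.38%. Without the filter on low counts edgeR called 6 lower, beside 3.60%, and 1 higher, beside 5.57%, and on protein-coding genes alone it called 5 lower, beside 4.06%. The count was 0 with the replicate number as a block and when a Jmjd3 KO or Utx KO library was left out. At an unadjusted p under 0.05, 15 members were lower, beside 11.9%.

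**Figure D2:**
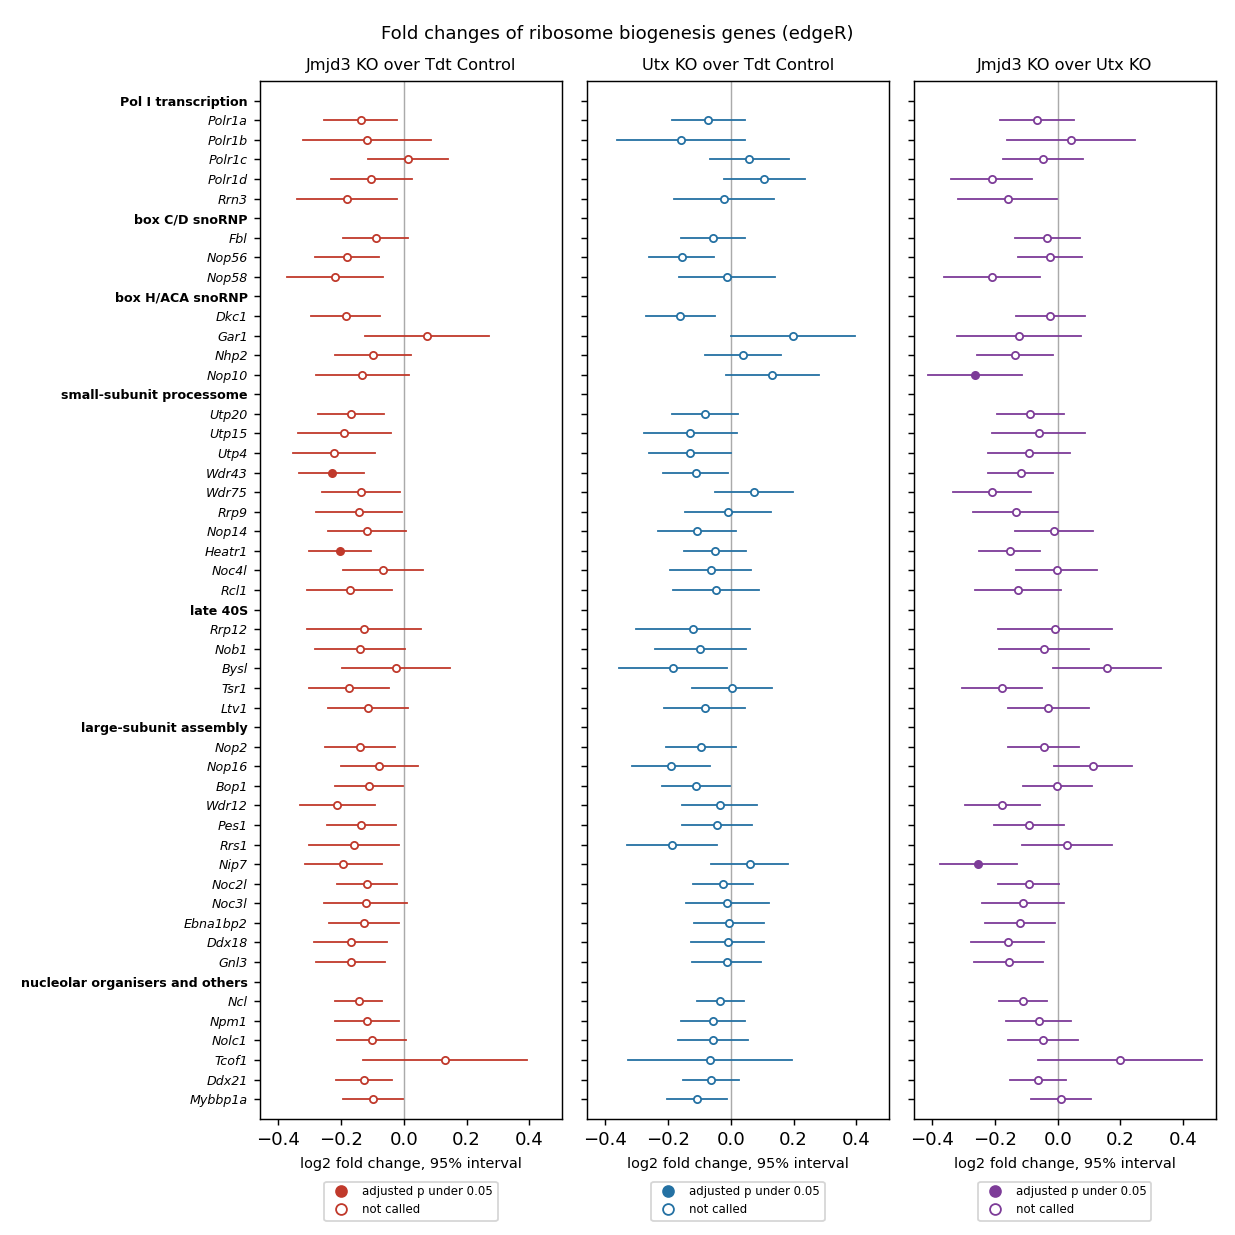
Log2 fold change of each member (point) with its 95% interval (line) from edgeR, in the 3 comparisons, with genes grouped by role. Filled points mark an adjusted p under 0.05, which are Wdr43 and Heatr1 on the left, none in the middle, and Nip7 and Nop10 on the right.

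Among the genes for Pol I transcription the changes were mixed and none was called. Polr1a, the largest subunit of Pol I, stood at 209 and 209 CPM (Jmjd3 KO), 238 and 223 CPM (Tdt Control) and 221 and 218 CPM (Utx KO). Both Jmjd3 KO libraries were lowest, and the log2 fold change against Tdt Control, given ± SE from here on, was -0.14 ± 0.050 (adjusted p = 0.186). Rrn3, the factor that brings Pol I to its promoter, stood at 117 and 104 CPM (Jmjd3 KO), 128 and 123 CPM (Tdt Control) and 124 and 123 CPM (Utx KO). Its Utx KO libraries lay within the control range or touched it, and its log2 fold changes were -0.18 ± 0.068 (adjusted p = 0.199) in Jmjd3 KO and -0.022 ± 0.068 (adjusted p = 0.914) in Utx KO. Polr1b, the second-largest subunit, had control libraries of 89.2 and 74.6 CPM, a spread larger than the gap between the means of the controls and either knockout. Its log2 fold change was -0.12 ± 0.088 (adjusted p = 0.506) in Jmjd3 KO and -0.16 ± 0.088 (adjusted p = 0.426) in Utx KO. Polr1c and Polr1d, which Pol I shares with Pol III, lay above the controls in both Utx KO libraries. Polr1c was at 0.013 in Jmjd3 KO and 0.059 in Utx KO, and Polr1d stood at 154 and 143 CPM (Jmjd3 KO), 162 and 158 CPM (Tdt Control) and 171 and 173 CPM (Utx KO), with the Utx KO libraries highest. The log2 fold change of Polr1d was 0.11 ± 0.055 (adjusted p = 0.394) in Utx KO against Tdt Control and -0.21 ± 0.055 (adjusted p = 0.0607) in Jmjd3 KO against Utx KO.

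The box C/D snoRNP proteins, which carry the guide RNAs for ribose methylation, had the lowest group median in Jmjd3 KO, -0.18 over 3 genes. Nop56, one of the pair of scaffold proteins of the particle, stood at 300 and 308 CPM (Jmjd3 KO), 347 and 342 CPM (Tdt Control) and 303 and 315 CPM (Utx KO). Both knockouts lay below both controls, with log2 fold changes of -0.18 ± 0.044 (adjusted p = 0.0737) in Jmjd3 KO and -0.16 ± 0.044 (adjusted p = 0.142) in Utx KO. Nop58, the other scaffold, stood at 292 and 283 CPM (Jmjd3 KO), 316 and 354 CPM (Tdt Control) and 345 and 320 CPM (Utx KO). Only its Jmjd3 KO libraries lay outside the control range, at -0.22 ± 0.066 (adjusted p = 0.125) against -0.011 ± 0.066 (adjusted p = 0.956) in Utx KO. Fbl, the methyltransferase fibrillarin, was at -0.090 ± 0.044 (adjusted p = 0.308) in Jmjd3 KO and -0.057 ± 0.044 (adjusted p = 0.582) in Utx KO.

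The box H/ACA snoRNP proteins, which convert uridines to pseudouridine, split in Utx KO. Dkc1, the pseudouridine synthase, stood at 177 and 174 CPM (Jmjd3 KO), 202 and 196 CPM (Tdt Control) and 179 and 178 CPM (Utx KO). All 4 knockout libraries were below both controls, at -0.19 ± 0.047 (adjusted p = 0.0826) in Jmjd3 KO and -0.16 ± 0.047 (adjusted p = 0.155) in Utx KO. Its 3 small partners lay above the controls in both Utx KO libraries. Nop10 (ENSMUSG00000027133.3, chromosome 2, 112261926 to 112263269) stood at 70.9 and 66.00 CPM (Jmjd3 KO), 72.2 and 77.8 CPM (Tdt Control) and 81.8 and 82.6 CPM (Utx KO), with the Jmjd3 KO libraries lowest and the Utx KO libraries highest. Against Tdt Control it was at -0.13 ± 0.064 (adjusted p = 0.305) in Jmjd3 KO and 0.13 ± 0.064 (adjusted p = 0.367) in Utx KO, and it was lower in Jmjd3 KO than in Utx KO, with -0.26 ± 0.064 (adjusted p = 0.0481). Gar1 stood at 15.3 and 17.7 CPM (Jmjd3 KO), 16.3 and 14.97 CPM (Tdt Control) and 18.2 and 17.8 CPM (Utx KO), the lowest read counts of the 45 genes, and was at 0.20 ± 0.085 (adjusted p = 0.305) in Utx KO. Nhp2 was at -0.10 in Jmjd3 KO and 0.039 in Utx KO, neither called.

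The small-subunit processome, which makes the first cuts of the 18S rRNA precursor, held both members that fell in Jmjd3 KO. All 10 of its genes had both Jmjd3 KO libraries below both controls, beside 25.5% of all genes, with a median of -0.17. Wdr43 (ENSMUSG00000041057.10, chromosome 17, 71615895 to 71659031 in GRCm38), a subunit of the UTP-A complex that binds the start of the precursor, stood at 213 and 209 CPM (Jmjd3 KO), 249 and 246 CPM (Tdt Control) and 231 and 227 CPM (Utx KO). The 3 genotypes did not overlap, with Jmjd3 KO lowest and Utx KO between. Wdr43 fell by 14.7% in Jmjd3 KO, a log2 fold change of -0.23 ± 0.044 (adjusted p = 0.0392) with a 95% interval of -0.33 to -0.13, and was at -0.11 ± 0.044 (adjusted p = 0.272) in Utx KO. Heatr1 (ENSMUSG00000050244.9, chromosome 13, 12395027 to 12440289), another UTP-A subunit and a long scaffold of helical repeats, stood at 296 and 298 CPM (Jmjd3 KO), 342 and 343 CPM (Tdt Control) and 335 and 326 CPM (Utx KO). Its controls differed by less than 1 CPM, and it fell in Jmjd3 KO, with a log2 fold change of -0.20 ± 0.042 (adjusted p = 0.0493), while Utx KO was at -0.050 ± 0.042 (adjusted p = 0.620). Both calls were lost when any 1 of the 6 libraries was left out (adjusted p 0.0673 to 0.217 for Wdr43 and 0.0700 to 0.241 for Heatr1), and with only the 4 libraries compared (0.0684 and 0.0726). With transcript length offsets, which adjust for changes in the isoforms used, Heatr1 was at -0.14 (adjusted p = 0.309) in Jmjd3 KO and 0.0043 (adjusted p = 0.987) in Utx KO, while Wdr43 was still called.

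The other 8 processome members were not called. Utp4, a further UTP-A subunit, stood at 141 and 137 CPM (Jmjd3 KO), 159 and 164 CPM (Tdt Control) and 153 and 142 CPM (Utx KO). The 3 genotypes did not overlap, with Jmjd3 KO lowest, at -0.22 ± 0.056 (adjusted p = 0.0804) in Jmjd3 KO and -0.13 ± 0.056 (adjusted p = 0.310) in Utx KO. Utp20, a very large repeat protein, was at -0.17 ± 0.045 (adjusted p = 0.0943) in Jmjd3 KO and Utp15, of UTP-A, at -0.19 ± 0.064 (adjusted p = 0.159). Rcl1 was at -0.17, the U3 snoRNP protein Rrp9 at -0.14, Nop14 at -0.12 and its partner Noc4l at -0.066, none called. Wdr75, also of UTP-A, stood apart in Utx KO, with 119 and 121 CPM (Jmjd3 KO), 128 and 135 CPM (Tdt Control) and 141 and 136 CPM (Utx KO). It lay below the controls in Jmjd3 KO, at -0.14 ± 0.053 (adjusted p = 0.209), and above them in Utx KO, at 0.073 ± 0.053 (adjusted p = 0.558), and the difference between the knockouts was -0.21 ± 0.053 (adjusted p = 0.0552).

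The 5 factors of late 40S maturation had a median of -0.13 in Jmjd3 KO and -0.097 in Utx KO, and none was called. Tsr1, a GTPase-like protein on pre-40S particles, stood at 136 and 136 CPM (Jmjd3 KO), 156 and 151 CPM (Tdt Control) and 159 and 149 CPM (Utx KO). The Jmjd3 KO libraries alone were low, at -0.17 ± 0.055 (adjusted p = 0.139) against 0.0035 ± 0.055 (adjusted p = 0.983) in Utx KO. Nob1, the nuclease that makes the final cut of 18S rRNA, stood at 67.7 and 66.1 CPM (Jmjd3 KO), 76.2 and 71.2 CPM (Tdt Control) and 66.6 and 71.2 CPM (Utx KO). Both Jmjd3 KO libraries lay below the controls and 1 Utx KO library equalled the lower control, with -0.14 ± 0.062 (adjusted p = 0.261) in Jmjd3 KO and -0.10 ± 0.062 (adjusted p = 0.494) in Utx KO. Bysl, the bystin of pre-40S particles, was low in Utx KO instead, with 95.1 and 91.5 CPM (Jmjd3 KO), 100 and 89.7 CPM (Tdt Control) and 79.9 and 87.2 CPM (Utx KO). Its Jmjd3 KO libraries lay inside the control range, and it was at -0.18 ± 0.074 (adjusted p = 0.282) in Utx KO and -0.025 ± 0.074 (adjusted p = 0.887) in Jmjd3 KO. Rrp12, an export factor, had controls of 157 and 134 CPM that spanned a wider range than the gap to either knockout, and Ltv1 was at -0.11 in Jmjd3 KO and -0.083 in Utx KO.

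All 12 members of large-subunit assembly had both Jmjd3 KO libraries below both controls, with a median of -0.14, beside 25.5% of all genes below both, and 10 of them were at an unadjusted p under 0.05, beside 8.93%. In Utx KO the median was -0.03, with 7 of the 12 below both controls, beside 23.3%, and 1 above, beside 22.3%. Nip7 (ENSMUSG00000031917.12, chromosome 8, 107056877 to 107060931), which acts in pre-60S processing, stood at 105 and 101 CPM (Jmjd3 KO), 117 and 119 CPM (Tdt Control) and 123 and 123 CPM (Utx KO). Jmjd3 KO was lowest, and both Utx KO libraries lay just above the controls. Nip7 was at -0.19 ± 0.053 (adjusted p = 0.0992) in Jmjd3 KO and 0.060 ± 0.053 (adjusted p = 0.641) in Utx KO against Tdt Control, and was lower in Jmjd3 KO than in Utx KO, with -0.25 ± 0.053 (adjusted p = 0.0297). Nip7 and Nop10 lost that call when a Jmjd3 KO or Utx KO library was left out (adjusted p 0.102 to 0.179 and 0.110 to 0.251), Nop10 also without Tdt Control replicate 1 (0.0510), and both with transcript length offsets (0.0730 and 0.121).

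The trimeric PeBoW complex of Pes1, Bop1 and Wdr12, needed for 28S rRNA maturation, lay lower in Jmjd3 KO in each subunit. Wdr12 stood at 97.1 and 95.2 CPM (Jmjd3 KO), 113 and 110 CPM (Tdt Control) and 109 and 109 CPM (Utx KO). Its Utx KO libraries lay just under the controls, and its log2 fold changes were -0.21 ± 0.051 (adjusted p = 0.0733) in Jmjd3 KO and -0.035 ± 0.051 (adjusted p = 0.798) in Utx KO. Pes1 was at -0.14 in Jmjd3 KO and -0.044 in Utx KO. Bop1 had nearly equal values in both knockouts, at -0.11 and -0.11. Nop16 and Rrs1, both early pre-60S factors, had their lowest mean in Utx KO. Nop16 stood at 54.99 and 53.7 CPM (Jmjd3 KO), 59.3 and 55.3 CPM (Tdt Control) and 50.6 and 49.9 CPM (Utx KO) and was at -0.19 ± 0.053 (adjusted p = 0.140) in Utx KO, the lowest member in that comparison. Rrs1, which helps to load the 5S particle, stood at 101 and 97.8 CPM (Jmjd3 KO), 114 and 107 CPM (Tdt Control) and 93.9 and 100 CPM (Utx KO) and was at -0.19 ± 0.062 (adjusted p = 0.189) in Utx KO, where its libraries overlapped those of Jmjd3 KO. The remaining genes were near their controls in Utx KO. They were the helicase Ddx18 (-0.17 in Jmjd3 KO, -0.010 in Utx KO), the GTPase nucleostemin Gnl3 (-0.17 and -0.013), Ebna1bp2 (-0.13 and -0.0068), Noc2l (-0.12 and -0.025) and Noc3l (-0.12 and -0.011). The rRNA methyltransferase Nop2 was at -0.14 in Jmjd3 KO and -0.094 in Utx KO.

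The 6 nucleolar organisers and related proteins held 6142 and 6222 CPM (Jmjd3 KO), 6790 and 6645 CPM (Tdt Control) and 6559 and 6375 CPM (Utx KO), more than any other role. Ncl, nucleolin, an RNA-binding protein of the dense fibrillar component, stood at 2675 and 2715 CPM (Jmjd3 KO), 3023 and 2932 CPM (Tdt Control) and 2963 and 2857 CPM (Utx KO). Jmjd3 KO lay below every other library, at -0.14 ± 0.032 (adjusted p = 0.0612), and Utx KO at -0.033 ± 0.032 (adjusted p = 0.678). Ddx21, a helicase that acts with Pol I, stood at 725 and 749 CPM (Jmjd3 KO), 813 and 796 CPM (Tdt Control) and 780 and 760 CPM (Utx KO). It was at -0.13 ± 0.038 (adjusted p = 0.127) in Jmjd3 KO and -0.064 ± 0.038 (adjusted p = 0.467) in Utx KO, with both knockouts below both controls. Mybbp1a, a Myb-binding protein of the nucleolus, stood at 901 and 925 CPM (Jmjd3 KO), 1006 and 948 CPM (Tdt Control) and 903 and 910 CPM (Utx KO). Its knockouts lay in the same range, at -0.10 ± 0.041 (adjusted p = 0.239) and -0.11 ± 0.041 (adjusted p = 0.251). Npm1, nucleophosmin, whose processed pseudogenes could share reads with it, was at -0.12 in Jmjd3 KO and -0.057 in Utx KO, and the phosphoprotein Nolc1 at -0.10 and -0.056. Tcof1, treacle, a scaffold that recruits Pol I, was the noisiest member, with 173 and 183 CPM (Jmjd3 KO), 184 and 141 CPM (Tdt Control) and 150 and 160 CPM (Utx KO). Its 2 controls lay at opposite ends of the range of all 6 libraries, and the interval in Jmjd3 KO ran from -0.13 to 0.39.

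**Figure D3:**
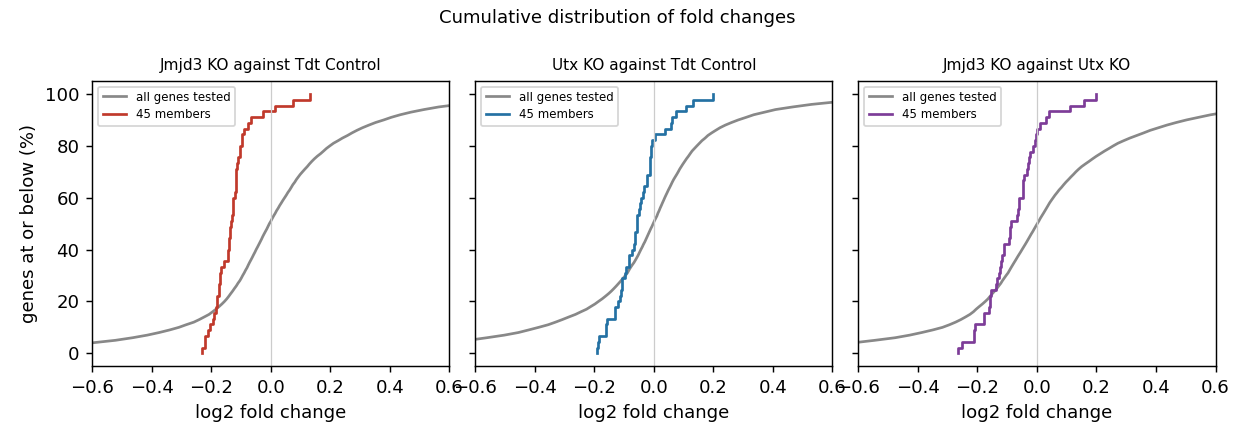
Cumulative share of genes (percent) at or below each log2 fold change, for the 45 members (coloured steps) and all 17084 genes tested (grey), in the 3 comparisons. The members' curve lies left of 0 for 42 genes in Jmjd3 KO, 37 in Utx KO and 39 between the knockouts, and is much steeper than that of all genes, since members lack both large decreases and large increases.

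Levels between genes were compared per length, in TPM. The mean TPM over the 6 libraries ran from 13.9 for Noc3l to 728 for Npm1. The median member was at 45.9, beside 5.44 for protein-coding genes tested. Npm1 stood at 748 and 764 TPM (Jmjd3 KO), 729 and 756 TPM (Tdt Control) and 703 and 670 TPM (Utx KO), and Ncl followed with a mean of 525, then Nop58 with 245 and Fbl with 159. Those steps between neighbours exceeded the spread over libraries, whereas Mybbp1a (129), Nhp2 (126) and Nop56 (117) overlapped, as did many pairs further down. The lowest were Bysl (16.7), Polr1b (14.00) and Noc3l. TPM are set by all transcripts of a library, and on that scale the median of all genes tested in Jmjd3 KO against Tdt Control was 0.095 (log2). The median of the members was -0.038, a difference of -0.13 from all genes, and Npm1 lay no lower in Jmjd3 KO in TPM although it lay lower in CPM. Between the knockouts the median of the members turned to 0.021 in TPM, beside 0.096 for all genes, a difference of -0.075.

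**Figure D4:**
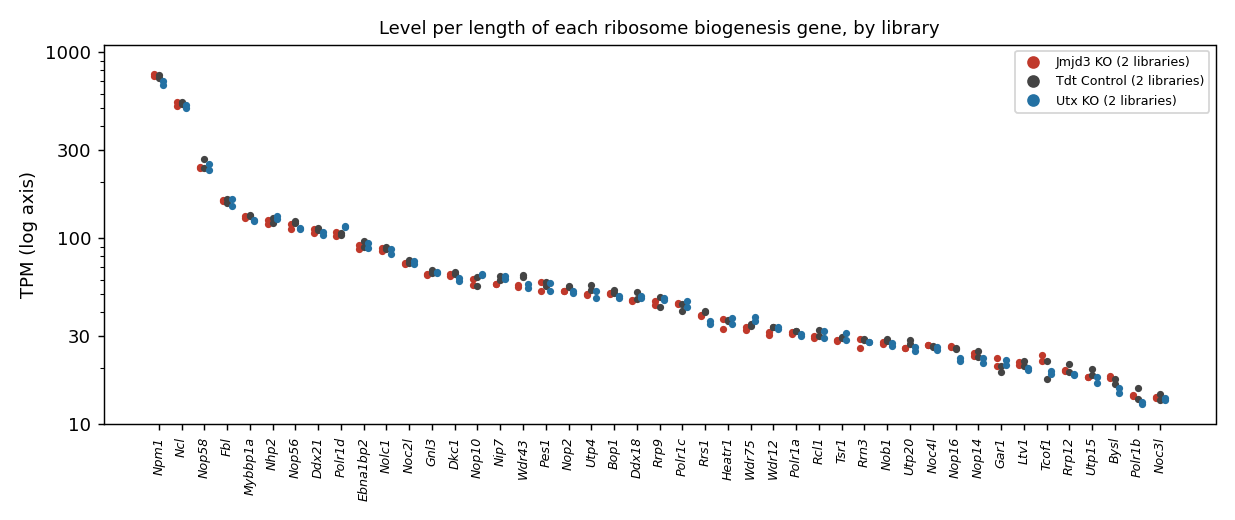
TPM of each member on a log axis, ordered by the mean over the 6 libraries, with 1 point per library coloured by genotype. Npm1 and Ncl stand above the other genes, and the differences between genes are far larger than those between genotypes.

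A few members were read mainly from transcripts not annotated as coding. In 29 of the 45 one transcript held at least 80% of the gene's TPM in the controls, and in 16 the leading transcript held less. Ncl was led by a transcript annotated as a retained intron, with 84.2% to 86.4% of its TPM. Polr1a was led by Polr1a-203, annotated for nonsense-mediated decay, with 32.2% to 34.7% of its TPM, while the coding Polr1a-201 held 8.92% to 9.96%. Gar1 was led by the retained-intron transcript Gar1-205, with 54.8% and 52.8% (Jmjd3 KO), 57.0% and 51.1% (Tdt Control) and 47.0% and 49.0% (Utx KO). Polr1d was divided between Polr1d-201 and Polr1d-202, and Polr1d-201 held 48.9% and 49.1% (Jmjd3 KO), 50.1% and 50.4% (Tdt Control) and 53.6% and 52.2% (Utx KO). Those 3 pairs did not overlap, although the shares differ by a few percent. Nolc1-202 held 12.1% and 34.2% of Nolc1 (Jmjd3 KO), 41.8% and 37.6% (Tdt Control) and 36.6% and 24.0% (Utx KO), a spread within a genotype as large as that between genotypes. Shares of overlapping transcripts are Salmon's estimates and were not tested.

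The promoters were examined as a description of their sequence. The E-box CACGTG, which reads the same on both strands and is the core site of the MYC and MAX family, was sought in RefSeq windows of 250 bases before to 50 after the start (GRCm38.p6). Of the 45 genes 39 had a window, and 9 of these (23.1%) held the motif, beside 20.6% of 102 genes of the related lists, 11.5% of protein-coding genes tested and 8.09% of all genes in that table. The 9 genes had a median log2 fold change of -0.17 in Jmjd3 KO (range -0.23 to -0.097), and the 30 others -0.13 (-0.22 to 0.075). In Utx KO the medians were -0.083 and -0.034. The ranges in Jmjd3 KO overlapped. Neither the difference in medians nor that in shares was tested, nor was a link of the motif to the members' levels. The 10 sites are given in capitals, with 10 bases on each side where the window allows, 5′ to 3′ on the strand of the gene. Of these, 7 begin 3 to 41 bases after the RefSeq start, and those of Nop2 and Rrn3 lie before it. The RefSeq start of Wdr43 lies 320 bases inside the GENCODE gene, so its site is not near the outermost start.
Ltv1, chr10:13193094-13193119 (minus strand): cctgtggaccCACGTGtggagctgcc
Mybbp1a, chr11:72441357-72441376 (plus strand): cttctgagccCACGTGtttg
Nop2, chr6:125131813-125131838 (plus strand): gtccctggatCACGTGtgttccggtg
Pes1, chr11:3963967-3963992 (plus strand): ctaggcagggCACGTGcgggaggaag
Rrn3 upstream site, chr16:13780474-13780499 (plus strand): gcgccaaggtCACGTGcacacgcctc
Rrn3 downstream site, chr16:13780641-13780666 (plus strand): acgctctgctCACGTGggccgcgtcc
Tsr1, chr11:74898094-74898119 (plus strand): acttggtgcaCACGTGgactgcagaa
Utp20, chr10:88826765-88826787 (minus strand): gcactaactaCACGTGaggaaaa
Utp4, chr8:106893645-106893670 (plus strand): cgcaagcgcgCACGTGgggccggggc
Wdr43, chr17:71616222-71616247 (plus strand): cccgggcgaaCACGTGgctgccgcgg

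Longer stretches are given for Nip7 and Nop10, the members called between the knockouts, and for Rrn3, which has 2 sites. They hold the bases before the RefSeq start that lie in no annotated exon, with the motif in capitals. Nip7 and Nop10 hold no CACGTG there, which says only that these letters are absent from the windows. Their coordinates are chr8:107056690-107056876 for Nip7, chr2:112261676-112261925 for Nop10 and chr16:13780449-13780698 for Rrn3, all on the plus strand.
Nip7: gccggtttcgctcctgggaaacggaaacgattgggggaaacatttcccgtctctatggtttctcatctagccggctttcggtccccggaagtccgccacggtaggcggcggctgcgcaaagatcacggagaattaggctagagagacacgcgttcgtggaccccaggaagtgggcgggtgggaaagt
Nop10: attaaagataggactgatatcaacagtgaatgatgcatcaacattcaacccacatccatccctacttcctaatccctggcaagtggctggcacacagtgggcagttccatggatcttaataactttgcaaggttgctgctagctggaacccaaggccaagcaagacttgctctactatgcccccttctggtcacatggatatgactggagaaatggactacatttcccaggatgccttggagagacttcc
Rrn3: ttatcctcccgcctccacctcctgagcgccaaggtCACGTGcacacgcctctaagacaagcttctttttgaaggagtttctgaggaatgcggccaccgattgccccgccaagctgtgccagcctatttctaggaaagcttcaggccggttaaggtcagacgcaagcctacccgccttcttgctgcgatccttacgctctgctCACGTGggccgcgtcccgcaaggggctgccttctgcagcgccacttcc

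Genes of the same pathway outside the 45 lay at similar distances from the control in Jmjd3 KO. Of 35 other small-subunit processome genes none was called, with a median of -0.14. Of 45 other large-subunit assembly genes Mdn1 and Nifk fell, with a median of -0.15. Mdn1, a giant ATPase that strips factors from pre-60S particles, stood at 236 and 241 CPM (Jmjd3 KO), 286 and 282 CPM (Tdt Control) and 270 and 264 CPM (Utx KO), with a log2 fold change of -0.25 ± 0.044 (adjusted p = 0.0276). Nifk, a partner of the proliferation marker Ki-67, stood at 104 and 102 CPM (Jmjd3 KO), 123 and 128 CPM (Tdt Control) and 119 and 114 CPM (Utx KO), with -0.29 ± 0.055 (adjusted p = 0.0370). Of 12 other Pol I genes tested 2 fell. Over all genes 1.03% were called lower, and 2 genes of a list are few to read against that. Polr1e, a Pol I subunit, was at -0.23 ± 0.047 (adjusted p = 0.0454), and Taf1d, of the promoter selectivity factor, at -0.39 ± 0.078 (adjusted p = 0.0464). The median of these 12 was -0.078, smaller than that of the members. None was called among 8 late 40S genes (median -0.18), 10 snoRNP assembly genes (-0.12), 84 cytosolic ribosomal proteins (-0.072) and 78 mitochondrial ribosomal proteins (-0.051).

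In Utx KO against Tdt Control none of the other processing, assembly or Pol I genes was called. The medians were -0.043 for the small-subunit genes, -0.059 for the large-subunit genes and 0.045 for the Pol I genes, and the cytosolic ribosomal proteins were at 0.039, above 0, with Rps4x lower (-0.22). The mitochondrial ribosomal proteins were at 0.030, with Mrpl19 higher (0.28). Between the knockouts the medians of these lists were -0.11 and -0.076, with Rpl22l1 (-0.56), Rps27a (-0.22), Rpl3 (-0.15) and Mrpl19 (-0.40) lower in Jmjd3 KO, which is 3 of 84 and 1 of 78, beside 2.89% of all genes. Among the assembly factors Nmd3, the export adaptor of 60S subunits, was lower in Jmjd3 KO than in Utx KO, at -0.26 ± 0.063 (adjusted p = 0.0493), and so was Dimt1, an 18S rRNA methyltransferase, at -0.21 ± 0.050 (adjusted p = 0.0417). Nle1, a pre-60S factor, went the other way, with 51.5 and 49.8 CPM (Jmjd3 KO), 44.2 and 41.9 CPM (Tdt Control) and 35.6 and 37.6 CPM (Utx KO). It was highest in Jmjd3 KO and lowest in Utx KO, a difference of 0.47 ± 0.054 (adjusted p = 0.00387). Polr2h, a subunit common to the polymerases, was at -0.21 ± 0.048 (adjusted p = 0.0393) and Taf1d at -0.50 ± 0.078 (adjusted p = 0.0120).

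The Myc network, whose activators Myc and Mycn are known to raise ribosome biogenesis genes, was mixed. Myc stood at 184 and 181 CPM (Jmjd3 KO), 220 and 221 CPM (Tdt Control) and 260 and 217 CPM (Utx KO). It was lowest in Jmjd3 KO, at -0.28 ± 0.079 (adjusted p = 0.112) against Tdt Control, not called, and was lower than in Utx KO, with -0.39 ± 0.079 (adjusted p = 0.0270). Mycn, at 2.04 to 3.58 CPM, was at -0.69 ± 0.14 (adjusted p = 0.0504) in Jmjd3 KO. Mxd1, a repressor that competes with Myc for Max, stood at 36.1 and 31.7 CPM (Jmjd3 KO), 20.99 and 20.5 CPM (Tdt Control) and 25.3 and 26.6 CPM (Utx KO). It rose in Jmjd3 KO, with 0.71 ± 0.071 (adjusted p = 0.00369), and was at 0.32 ± 0.071 (adjusted p = 0.0817) in Utx KO. Mxd4, of the same family, stood at 15.96 and 16.2 CPM (Jmjd3 KO), 12.4 and 13.6 CPM (Tdt Control) and 17.4 and 16.7 CPM (Utx KO) and rose in Utx KO, with 0.39 ± 0.070 (adjusted p = 0.0445), beside 0.30 ± 0.070 (adjusted p = 0.0658) in Jmjd3 KO.

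**Figure D5:**
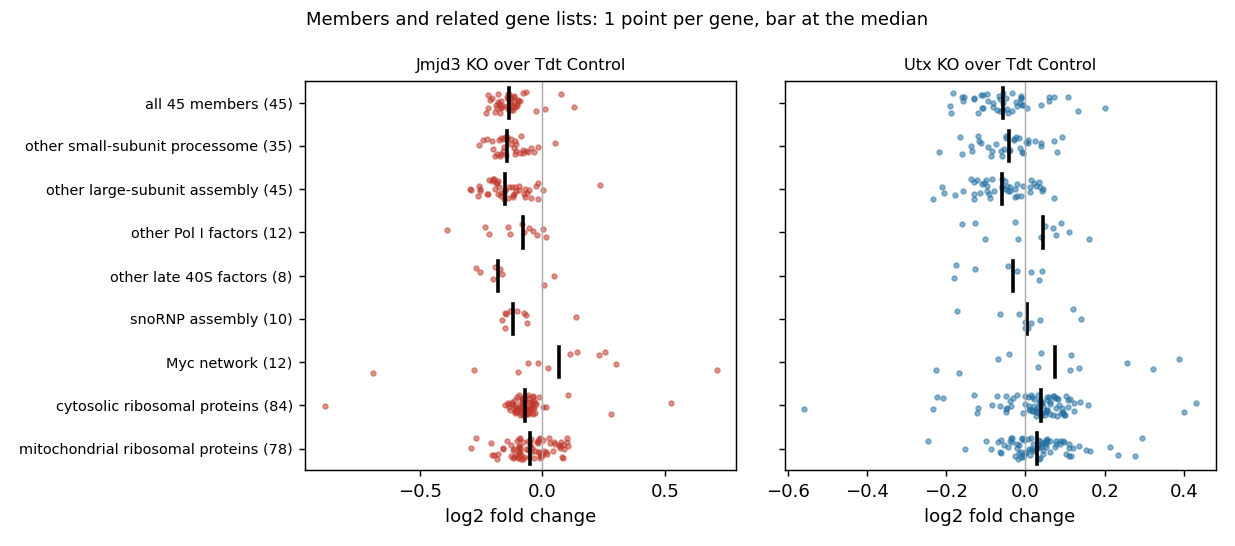
Log2 fold change of each gene (point) in the 45 members and 8 related lists, with the number of genes in brackets and a bar at the median, for Jmjd3 KO (left) and Utx KO (right) over Tdt Control, on different horizontal scales. On the left the processing and assembly lists have medians from -0.18 to -0.12, the other Pol I genes -0.078, the ribosomal proteins -0.072 and -0.051, and the Myc network 0.068.

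The authors' deposited table for Jmjd3 KO called 8 of the 45 members, all lower. Of the genes with an adjusted p in it, 6.10% were called, in either direction. The members called in the authors' deposited table were Ddx18, Nip7, Nop2, Nop56, Utp20, Utp4, Wdr12 and Wdr43. Wdr43 had a log2 fold change of -0.25 and an adjusted p of 4.07e-05 in the authors' deposited table, whereas Heatr1 had -0.11 and 0.280 there and was not called. In the authors' deposited table for Utx KO, Wdr43 alone of the members was called, lower (-0.16, adjusted p = 0.0356), beside 4.21% of genes called in either direction.

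Kdm6b lies on chromosome 11, as do 5 members (Npm1, Mybbp1a, Nhp2, Pes1 and Tsr1). Their median in Jmjd3 KO against Tdt Control was -0.12, and that of the 40 on other chromosomes -0.14. All 1284 genes tested on chromosome 11 had a median of 0.0092. Of these 40 were called lower and 64 higher, beside 1.03% and 1.97% of all genes.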

How the data were processed

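Total RNA of 6 sorted cell samples was measured by sequencing. DESeq2 1.28.1, Salmon 1.1.0, cutadapt 2.6 and the builds GRCm38 and mm10 are named in the submitters' processing notes, without their roles. Per the file headers, the deposited quantification files give TPM and estimated counts (reads per transcript) with lengths. Per the file headers, the authors' comparison tables give a mean signal per gene, log2 fold changes with standard errors, and p-values with adjusted p-values. Those fold changes look shrunken, by a method not given in the sources used here.

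Gene totals were made by adding the estimated counts of all transcripts that GENCODE M21 (GRCm38) assigns to a gene, and were rounded. Of 140748 transcripts, 139864 matched, 416 of them without their version, and these held 99.82% to 99.85% of the reads. All 6 libraries entered 1 edgeR 4.0.16 fit (R 4.3.3) with TMM normalization, filterByExpr and the quasi-likelihood test, which left 17084 genes and 3 residual degrees of freedom. P-values were adjusted by Benjamini-Hochberg over all genes tested. The standard error is the log2 fold change divided by the root of the F statistic. The fit was also run on simulated counts, with changes larger than those of the members, so that run does not bear on differences of their size. The alternatives were RLE and upper-quartile factors, DESeq2 1.42.0, other filters, transcript length offsets, a replicate block, protein-coding genes, only the 4 libraries compared, and each library left out.

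The members and lists were chosen with earlier results of these data known. Related lists came from general knowledge. Of their symbols, Polr1f, Polr1g, Polr1h and Slx9 matched no gene. The rule for names was that any member may be named, with values by library for members called in any comparison and for the 2 with the smallest p per role and knockout comparison, and up to 4 genes per related list.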

Additional observations from a re-analysis of the deposited data

How the results depend on the processing

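The median log2 fold change of the 45 members kept its direction under every alternative run, from -0.15 to -0.12 for Jmjd3 KO and from -0.069 to -0.034 for Utx KO, each against Tdt Control, and from -0.11 to -0.069 between the knockouts. TPM was not among these alternatives, and on that scale the median between the knockouts turned to 0.021, beside 0.096 for all genes tested. The number of members called did not keep. For Jmjd3 KO against Tdt Control, where the main count was 2, it was 1 with RLE size factors, 12 with DESeq2, 7 without the low-count filter, 1 with transcript length offsets, 4 with protein-coding genes only, 0 with only the 4 libraries compared and 0 to 0 over the libraries left out in turn. For Utx KO against Tdt Control it was 2 with DESeq2 and 0 otherwise. Between the knockouts, where the main count was 2, it was 10 with DESeq2, 7 without the low-count filter (6 lower and 1 higher), 4 with a filter of 5 CPM in 2 libraries, 1 with transcript length offsets, 5 with protein-coding genes only and 0 to 2 over the libraries left out. The 1 member called between the knockouts with transcript length offsets was Wdr75, and the calls of Nip7 and Nop10 were both lost there. Heatr1 in Utx KO against Tdt Control turned from -0.050 to 0.0043 with transcript length offsets. The causes were not tested.

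Replicate numbers are shared between groups, but libraries of the same number did not deviate together (correlations -0.011, -0.0081 and -0.053 across genes). With a replicate block 0 members were called in Jmjd3 KO against Tdt Control and 0 between the knockouts. Over all genes the counts called were 513, 293 and 1370 in the 3 comparisons as listed above. They were 1041, 656 and 1782 with DESeq2, 1872, 1399 and 2856 without the low-count filter, 330, 131 and 790 with transcript length offsets, 322, 133 and 948 with the block, and 481, 119 and 1494 with only the libraries compared. With 1 library left out they ran from 113 to 434, 16 to 96 and 291 to 1387, and a group left with 1 library was assumed to vary like the others. The 2 libraries per group and a typical half-width of 0.12 limit what single members can show.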

Other observations

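Small nucleolar RNAs, which guide the modification of rRNA within the particles described above, mostly lay below the control in Jmjd3 KO. This list was chosen after its values were seen, and it has no test of its own. Of 54 snoRNA genes with a mean of at least 5 CPM, 53 lay below 0 in Jmjd3 KO against Tdt Control, beside 50.9% of all genes, with a median log2 fold change of -0.37, and 9 fell, beside 1.03% of all genes. In Utx KO against Tdt Control the same genes had a median of -0.016, with none called by edgeR, and between the knockouts the median was -0.36, with 19 lower in Jmjd3 KO, beside 2.89% of all genes. Over all 173 snoRNA genes tested, 148 lay below 0 in Jmjd3 KO against Tdt Control, with a median of -0.30 and 9 called, while the median in Utx KO was 0.031, above 0, and 26 were lower between the knockouts. Snord17 stood at 39.2 and 37.8 CPM (Jmjd3 KO), 53.97 and 52.95 CPM (Tdt Control) and 46.2 and 45.4 CPM (Utx KO), with a log2 fold change of -0.47 ± 0.047 (adjusted p = 0.00374) in Jmjd3 KO. Snord15b stood at 22.4 and 20.5 CPM (Jmjd3 KO), 29.3 and 28.97 CPM (Tdt Control) and 29.5 and 27.4 CPM (Utx KO), with -0.44 ± 0.063 (adjusted p = 0.0149). Snora68, a box H/ACA guide, stood at 12.98 and 13.5 CPM (Jmjd3 KO), 19.1 and 16.9 CPM (Tdt Control) and 18.7 and 17.8 CPM (Utx KO), with -0.44 ± 0.077 (adjusted p = 0.0274). In each of these 3 both Jmjd3 KO libraries lay below the other 4. Of 19 snRNA genes at that level 4 fell in Jmjd3 KO, with a median of -0.24, and of 6 scaRNA genes 2 fell, with a median of -0.25.

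Rmrp, the RNA of the RNase that cuts pre-rRNA, stood at 5090 and 4477 CPM (Jmjd3 KO), 6586 and 5478 CPM (Tdt Control) and 5375 and 5340 CPM (Utx KO). It was at -0.33 ± 0.086 (adjusted p = 0.0846) in Jmjd3 KO, not called, with the controls far apart. Rpph1, the RNA of the related RNase P, was at -0.089 ± 0.054 (adjusted p = 0.407), and the 7 miscellaneous RNAs at that level had a median of -0.069. Estimates of such short genes depend on library preparation and on overlap with their host genes, and the part of either in these values was not tested.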
